A study of Mus musculus with 8 samples.

Results

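The Frizzled genes Fzd1 to Fzd10 are described here in sorted cells of the mouse molar. All 10 members of the family were taken by symbol from a table of 56748 genes, whatever their values, and all 10 were abundant enough to be tested among 21508 genes. Transcripts were counted by bulk RNA sequencing in 4 libraries labelled cKO, with the genotype Ctnnb1(-/-), and in 4 libraries labelled cHet, with the genotype Ctnnb1(+/-). Ctnnb1 encodes beta-catenin, the protein that carries canonical Wnt signals to the nucleus. Both groups received tamoxifen at postnatal day 3 and were collected at postnatal day 10, and in both the cells were sorted by flow cytometry for the red fluorescent protein tdTomato from molars of the lower jaw. The cHet libraries therefore share the tamoxifen, the fluorescent label and 1 deleted copy of Ctnnb1, and no group with 2 intact copies was analysed here. The labels call the sorted cells CXCL12+ cells of the apical papilla, a soft tissue below the forming root, although the tissue field reads dental pulp and the protocol text speaks of dental follicle cells. They name neither the Cre driver nor the deleted exons, and they do not say whether each library came from a separate animal, so each p-value reflects only how these libraries vary, which may be technical variation.

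Frizzled proteins are serpentine membrane receptors whose extracellular cysteine-rich domain binds Wnt proteins. With the co-receptor Lrp5 or Lrp6 a Wnt-bound Frizzled stabilises beta-catenin through Dishevelled, and with Ror, Ryk or planar polarity partners it acts without beta-catenin. By sequence the mouse family falls into the groups Fzd1, Fzd2 and Fzd7, then Fzd5 and Fzd8, then Fzd4, Fzd9 and Fzd10, and last Fzd3 and Fzd6. Wnt signals are needed for the growth and patterning of teeth and for root dentin formation.

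Total counts lay between 44444033 and 50051392 per library. The whole-gene count of Ctnnb1 averaged 277 ± 39.2 counts scaled to the library total (CPM) in cKO libraries and 257 ± 40.2 CPM in cHet libraries (SD, n = 4 each), a log2 difference of 0.11 (SE 0.15) with an adjusted p of 0.785 in edgeR's quasi-likelihood test. Because reads of undeleted exons are part of that count, it does not check the genotype labels. Cxcl12, the gene that gives the cells their label, averaged 826 ± 238 CPM in cKO libraries and 149 ± 91.5 CPM in cHet libraries (log2 difference 2.47, adjusted p = 0.0497). The 15 mesenchyme markers summed to between 14140 and 27780 CPM in cKO libraries and to between 3898 and 12510 CPM in cHet libraries, with 13 of 15 positive in log2 difference. The 15 markers of the dental papilla were all positive. For 12 of them every cKO library was above every cHet library, against 6.46% of all tested genes. edgeR called 3 of them higher, against 1.13% of all tested genes called in either direction. They summed to between 3061 and 5646 CPM in cKO libraries and to between 520 and 1504 CPM in cHet libraries. The marker lists were chosen with earlier results of these data known, so a share above that of all genes is no independent evidence. Of 19 olfactory epithelium markers 18 were tested and 17 were negative, summing to between 6939 and 9359 CPM in cKO libraries and to between 8620 and 14960 CPM in cHet libraries. Omp, the marker of mature olfactory neurons, stood between 1739 and 3940 CPM over all 8 libraries, which goes against a pure sort of dental cells. The 12 immune markers summed to between 136 and 592 CPM in cKO libraries and to between 191 and 11200 CPM in cHet libraries, the highest value being that of cHet12. All 12 were negative, with a median log2 difference of −2.19. edgeR called none, and 10 had an unadjusted p under 0.05, against 17.1% of all tested genes. Of 10 endothelium markers 8 were negative, with a median of −0.72. No listed marker of these types was at 0 in all libraries. In such bulk samples, fewer cells of a type and less RNA per cell cannot be told apart.

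The 250 bases before the starts of Fzd7, Fzd1 and Fzd9, the members with the highest levels per length in cKO libraries, are given first. This choice rests on the level in cKO libraries alone, so a difference between the groups enters it. Fzd9 ranked 3 in cKO libraries but 7 in cHet libraries, and the CPM of Fzd1 and of Fzd9 overlapped between the groups. The stretches are from RefSeq in the build GRCm38.p6, written in the direction of transcription. Capitals mark a match, on either strand, to the motif bound by TCF/LEF factors, the nuclear partners of beta-catenin. The forms searched were CTTTGAA and CTTTGAT as well as CTTTGTA and CTTTGTT.
Fzd7: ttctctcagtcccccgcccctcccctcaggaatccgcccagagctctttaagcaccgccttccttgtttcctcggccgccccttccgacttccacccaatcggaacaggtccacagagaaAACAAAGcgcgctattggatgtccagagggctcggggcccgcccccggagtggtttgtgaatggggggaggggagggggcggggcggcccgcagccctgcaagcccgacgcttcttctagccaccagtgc
Fzd1: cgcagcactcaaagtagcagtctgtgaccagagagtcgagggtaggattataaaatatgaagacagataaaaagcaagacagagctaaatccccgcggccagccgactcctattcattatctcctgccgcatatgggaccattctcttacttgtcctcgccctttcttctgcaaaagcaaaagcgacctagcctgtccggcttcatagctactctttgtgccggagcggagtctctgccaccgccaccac
Fzd9: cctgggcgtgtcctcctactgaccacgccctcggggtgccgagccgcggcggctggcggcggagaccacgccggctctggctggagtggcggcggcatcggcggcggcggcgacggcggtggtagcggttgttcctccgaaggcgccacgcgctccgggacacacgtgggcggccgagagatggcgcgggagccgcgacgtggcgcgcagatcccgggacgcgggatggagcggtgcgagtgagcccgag
The Fzd7 stretch is chr1:59481897-59482146 on the plus strand, the Fzd1 stretch chr5:4758217-4758466 on the minus strand, and the Fzd9 stretch chr5:135251048-135251297 on the minus strand. Of the 6 Frizzled promoters in the table (Fzd1, Fzd4, Fzd5, Fzd7, Fzd9 and Fzd10), Fzd7 alone held a match, which read on the opposite strand is CTTTGTT and begins 130 bases before the start. Among 32851 promoters of the same length 4874 (14.8%) held at least 1 match. These letters are a description of the sequence and not a binding site. The stretches differed in composition, with 17 CpG dinucleotides before Fzd7, 12 before Fzd1 and 42 before Fzd9, against a median of 6 over all promoters. Fzd2, Fzd3, Fzd6 and Fzd8 are named only.

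The comparison of cKO with cHet libraries asks how transcripts of the Wnt receptors differ when the second copy of Ctnnb1 is deleted too. Fzd7 and Fzd2 stood higher in every cKO library than in any cHet library, by 2.80-fold and 2.37-fold, and Fzd8 did so narrowly, but none of the 10 members passed an adjusted p of 0.05 in edgeR's quasi-likelihood test. Over all tested genes 244 passed (1.13%), 232 of them higher and 12 lower in cKO libraries. At an unadjusted p under 0.05 edgeR listed 4 of 10 members (Fzd2, Fzd7, Fzd8 and Fzd9), against 17.1% of all tested genes. DESeq2 called 3 of 10 members higher (Fzd2, Fzd7 and Fzd8), against 8.64% of the genes it tested, and limma voom with quality weights called the same 3 higher, against 5.96%. The median log2 difference was 0.48 over the 10 members, of which 7 were positive, and −0.03 over all tested genes.

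**Figure D1:**
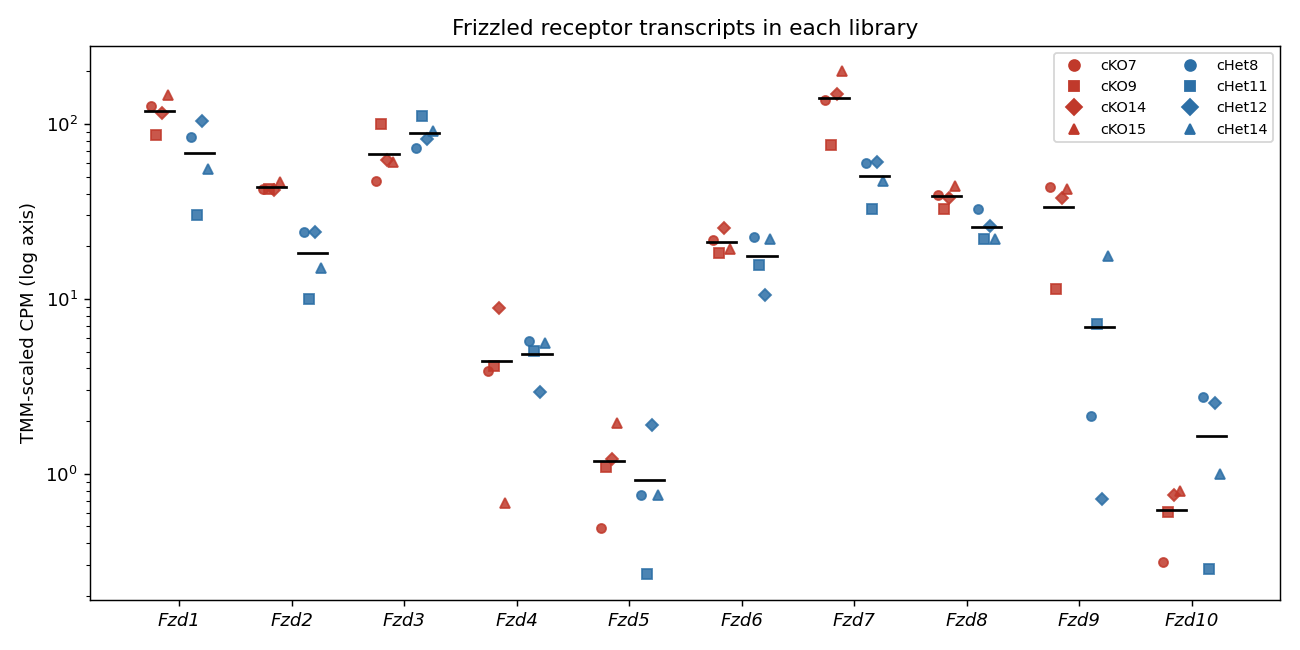
Normalised read counts of the 10 Frizzled genes, in TMM-scaled CPM on a log axis, with 1 point per library (n = 4 each), cKO left of cHet, and bars at the group means. The 4 cKO points of Fzd7 lie between 76.0 and 201 CPM, above the 4 cHet points between 32.9 and 60.9 CPM, while those of Fzd3, Fzd4, Fzd5 and Fzd6 intermingle.

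Fzd7 (ENSMUSG00000041075.9), a receptor for canonical Wnts in intestinal stem cells of the mouse, had 137, 76.0, 148 and 201 CPM in cKO7, cKO9, cKO14 and cKO15, against 59.8, 32.9, 60.9 and 47.1 CPM in cHet8, cHet11, cHet12 and cHet14. Every cKO library was thus above every cHet library, with cKO9 lowest of its group and nearest to the cHet values. The means were 140.5 ± 51.2 CPM in cKO libraries and 50.2 ± 13.1 CPM in cHet libraries (SD, n = 4 each). The log2 difference was 1.49 (SE 0.31) with an edgeR adjusted p of 0.0639. It passed in DESeq2 (adjusted p = 4.35e-05) and in limma voom (adjusted p = 0.0151), and in edgeR without cKO9, where the log2 difference was 1.69 (adjusted p = 0.0217). Over all tested genes 4.32% passed without cKO9, the cKO library lowest in Fzd7. Without any other single library Fzd7 did not pass, with edgeR adjusted p-values from 0.0898 (without cHet8) to 0.190 (without cKO14).

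Fzd2 (ENSMUSG00000050288.7), which acts with Fzd1 in closing the mouse palate, was the most even member among cKO libraries. It had 42.7, 42.5, 42.1 and 46.7 CPM in cKO7, cKO9, cKO14 and cKO15, against 24.1, 9.995, 24.2 and 15.0 CPM in cHet8, cHet11, cHet12 and cHet14. The groups did not overlap, and the cHet libraries spread more widely than the cKO libraries. The log2 difference was 1.25 (SE 0.27) with an edgeR adjusted p of 0.0745, against 3.04e-04 in DESeq2 and 0.0165 in limma voom.

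Fzd1 (ENSMUSG00000044674.7), the closest relative of Fzd7 and Fzd2, had 127, 86.6, 115 and 146 CPM in cKO7, cKO9, cKO14 and cKO15, against 84.2, 30.3, 104 and 55.4 CPM in cHet8, cHet11, cHet12 and cHet14. The groups overlapped, since cHet12 stood above cKO9. The log2 difference was 0.80 (SE 0.35, edgeR adjusted p = 0.297), and −0.23 when libraries were scaled to the mesenchyme markers. That scaling moved the median of all tested genes to −1.24, and Fzd1 stood 1.02 above that median, against 0.82 above it before. A change of scaling shifts all genes nearly alike, so values relative to the median stay near the earlier ones by construction. Over all 21508 genes, every cKO library stood above every cHet library for 6.46%, and below for 3.68%. Of the 10 Frizzled genes, 3 (Fzd2, Fzd7 and Fzd8) were above in this sense and none was below.

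Fzd8 (ENSMUSG00000036904.7), whose Wnt-binding domain was the first to be crystallised with a Wnt, had 39.5, 32.8, 37.6 and 44.4 CPM in cKO7, cKO9, cKO14 and cKO15, against 32.7, 21.9, 26.0 and 22.0 CPM in cHet8, cHet11, cHet12 and cHet14. The lowest cKO library and the highest cHet library almost touched. The log2 difference of 0.59 (SE 0.17) had an edgeR adjusted p of 0.143, against 0.0142 in DESeq2 and 0.0423 in limma voom, and became −0.59 under scaling to the mesenchyme markers, which is 0.66 above the median of all tested genes on that scale, against 0.615 before. Its relative Fzd5 (ENSMUSG00000045005.10), needed for yolk sac vessels in the mouse, was near the bottom of the family with 0.4905 to 1.95 CPM in cKO libraries and 0.2655 to 1.89 CPM in cHet libraries. The log2 difference of Fzd5 was 0.38 (SE 0.65, edgeR adjusted p = 0.827), smaller than its error, and 1.0 without cHet12. An antisense gene covers 1233 of its exonic bases, whose reads cannot be told from its own in unstranded libraries.

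Fzd9 (ENSMUSG00000049551.3), needed for bone formation in the mouse, had the largest fold difference of the family and also a wide spread. It had 43.8, 11.4, 37.5 and 42.3 CPM in cKO7, cKO9, cKO14 and cKO15, against 2.14, 7.21, 0.722 and 17.5 CPM in cHet8, cHet11, cHet12 and cHet14. In 3 cKO libraries it was above all cHet libraries, whereas cKO9 lay below cHet14. The means of 33.8 ± 15.1 CPM in cKO libraries and 6.89 ± 7.61 CPM in cHet libraries (SD, n = 4 each) gave a log2 difference of 2.29 (SE 0.89, edgeR adjusted p = 0.244). Without cHet14, the highest cHet library, it was 3.31 (adjusted p = 0.189), and without any other single library it stayed between 1.91 and 2.58.

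Fzd4 (ENSMUSG00000049791.5), the receptor of the non-Wnt ligand Norrin in retinal vessels, had 3.88, 4.14, 8.86 and 0.682 CPM in cKO7, cKO9, cKO14 and cKO15, against 5.78, 5.01, 2.95 and 5.59 CPM in cHet8, cHet11, cHet12 and cHet14. Both the highest and the lowest library were cKO libraries, and the log2 difference of −0.14 (SE 0.64, edgeR adjusted p = 0.944) became 0.22 without cKO15 and −0.76 without cKO14. Fzd10 (ENSMUSG00000081683.6) was scarce, with 0.312 to 0.7997 CPM in cKO libraries and 0.2845 to 2.74 CPM in cHet libraries, on 14 to 142 reads per library. Its log2 difference was −1.40 (SE 0.69, edgeR adjusted p = 0.349), with the group ranges overlapping through cHet11.

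Fzd3 (ENSMUSG00000007989.8), which guides axon tracts through planar polarity signalling in the mouse, had 47.4, 99.8, 62.6 and 60.4 CPM in cKO7, cKO9, cKO14 and cKO15, against 73.1, 111, 82.6 and 91.4 CPM in cHet8, cHet11, cHet12 and cHet14. It was the only member above 40 CPM in any library whose mean was lower in cKO libraries, and cKO9 stood apart from the other cKO libraries and inside the cHet range. The log2 difference was −0.40 (SE 0.24, edgeR adjusted p = 0.428). Fzd6 (ENSMUSG00000022297.16), the planar polarity receptor of hair and nail, had 21.7, 18.2, 25.6 and 19.2 CPM in cKO7, cKO9, cKO14 and cKO15, against 22.6, 15.7, 10.6 and 22.0 CPM in cHet8, cHet11, cHet12 and cHet14. The ranges overlapped in part, with cHet11 and cHet12 below all cKO libraries and cKO14 above all cHet libraries. The log2 difference was 0.26 (SE 0.26, edgeR adjusted p = 0.678), and −0.95 under scaling to the mesenchyme markers, 0.29 above the median of all genes on that scale.

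**Figure D2:**
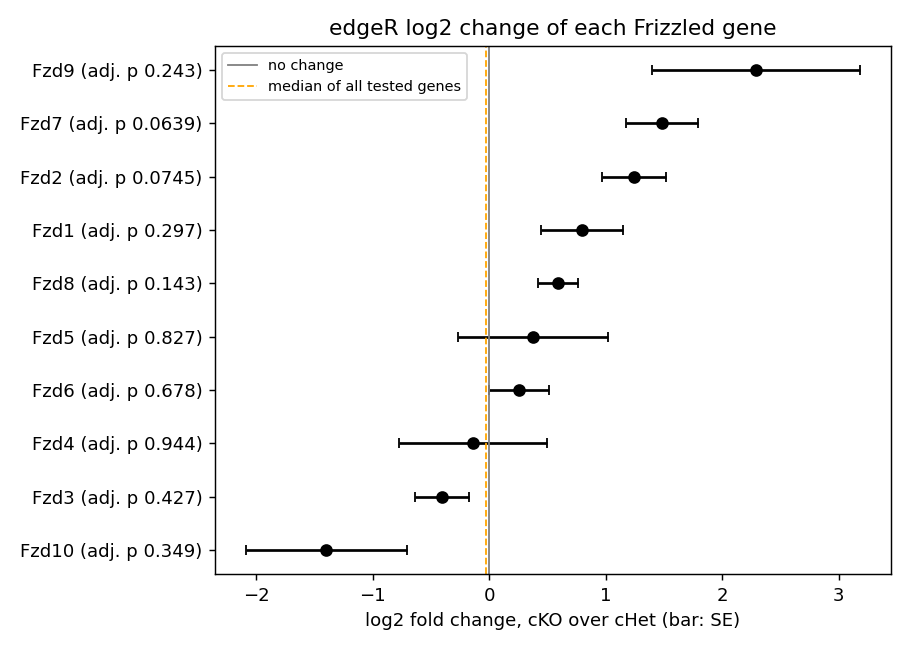
Log2 differences of the 10 Frizzled genes, cKO over cHet, in the edgeR fit, with bars of 1 standard error (an approximation), and the dashed line at the median of all 21508 tested genes (−0.03). Fzd9 lies farthest to the right at 2.29 with a wide bar, and Fzd7 and Fzd2 at 1.49 and 1.25 with narrower ones.

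The libraries also differed in marker content, and the members were set beside it. The mesenchyme score, the mean log2 CPM of the 15 mesenchyme markers, was 8.48, 8.15, 8.76 and 9.07 in cKO7, cKO9, cKO14 and cKO15, against 8.17, 6.55, 7.84 and 7.38 in cHet8, cHet11, cHet12 and cHet14. The order of the libraries by this score was close to their order by Fzd7, with cKO15 highest and cHet11 lowest in both, whereas cHet11 was highest in Fzd3. With the mesenchyme score in the model the log2 difference was 0.59 for Fzd7 (adjusted p = 0.793) and 0.58 for Fzd2 (adjusted p = 0.736), both smaller than without it. It was larger in size for Fzd9, at 3.31 (adjusted p = 0.88), and for Fzd10, at −2.92 (adjusted p = 0.376). Under scaling to the mesenchyme markers Fzd7 stood at 0.30 (edgeR adjusted p = 0.429) and Fzd2 at 0.23 (edgeR adjusted p = 0.574). That is 1.55 and 1.47 above the median of all tested genes on that scale, against 1.51 and 1.27 before. Since a scaling shifts all genes nearly alike, these relative values do not test the share of mesenchyme.

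The olfactory score of the same kind was 7.28, 7.71, 7.10 and 6.70 in cKO7, cKO9, cKO14 and cKO15, against 7.77, 7.98, 7.30 and 7.80 in cHet8, cHet11, cHet12 and cHet14. With it in the model the log2 difference was 0.78 for Fzd7 (adjusted p = 0.348) and 1.0 for Fzd2 (adjusted p = 0.399), while Fzd9 stood at 2.34 (adjusted p = 0.794). The part of either tissue share in the Frizzled differences was not tested. The libraries cKO9 and cHet8 had nearly equal mesenchyme and olfactory scores, and as single libraries allow no test. They were not matched in other content. Scores of the same kind in cKO9 and cHet8 were 2.88 and 6.19 for immune, 6.80 and 8.12 for ameloblast markers. They were 0.185 and 1.96 for endothelium, and 5.85 and 5.42 for papilla markers. Fzd7 was 76.0 CPM in cKO9 and 59.8 CPM in cHet8, and Fzd2 was 42.5 CPM in cKO9 and 24.1 CPM in cHet8. Fzd1 was about level at 86.6 CPM in cKO9 and 84.2 CPM in cHet8, while Fzd3 was 99.8 CPM in cKO9 and 73.1 CPM in cHet8.

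**Figure D3:**
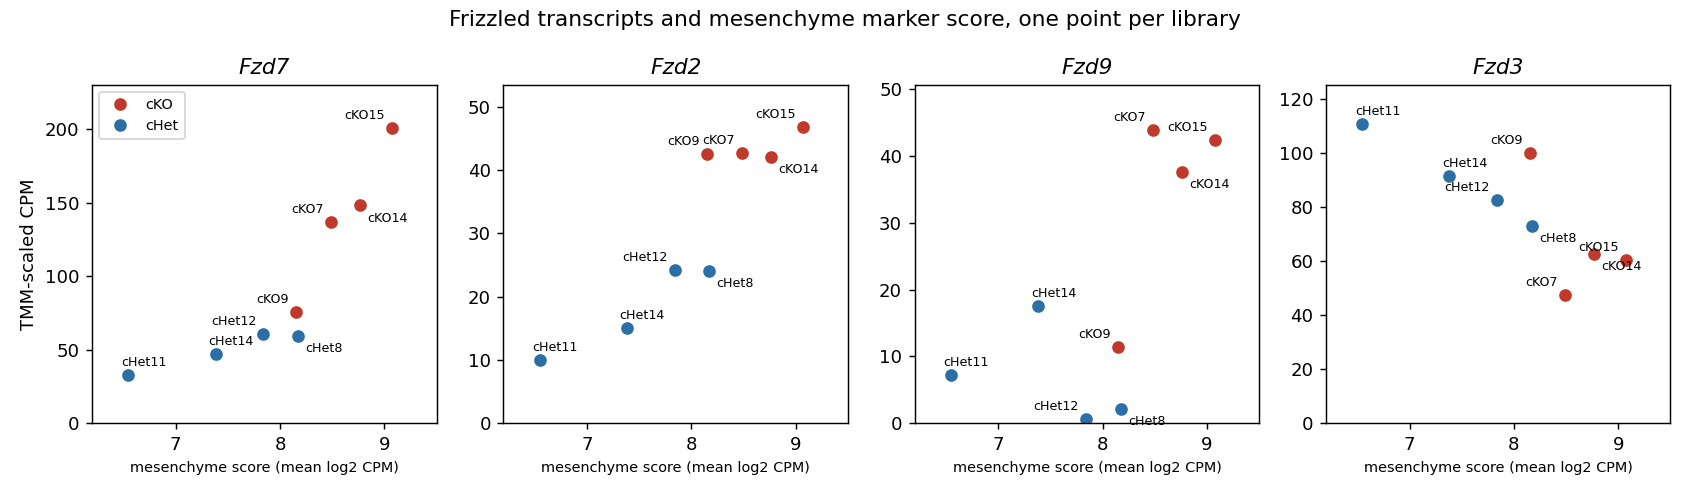
TMM-scaled CPM of Fzd7, Fzd2, Fzd9 and Fzd3 (y axes) against the mesenchyme score, the mean log2 CPM of 15 marker genes (x axes), with 1 point per library (n = 4 each, cKO red and cHet blue). Fzd7 runs from 32.9 CPM at the lowest score (cHet11) to 201 CPM at the highest (cKO15), and Fzd3 is highest, at 111 CPM, in cHet11.

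Levels of different members were compared per kilobase of exon. In cKO libraries Fzd7 and Fzd1 led with 31.0 ± 11.3 and 28.3 ± 5.93 CPM per kilobase, and their ranges overlapped. Fzd9 with 14.7 ± 6.60 and Fzd2 with 11.9 ± 0.593 CPM per kilobase followed, again overlapping each other, and Fzd1 was apart from Fzd9. Next came Fzd8 with 6.46 ± 0.806, Fzd3 with 5.28 ± 1.76 and Fzd6 with 4.39 ± 0.682 CPM per kilobase, each overlapping the next. Fzd2 was apart from Fzd8, whereas Fzd9 in cKO9, at 4.98 CPM per kilobase, lay below all cKO values of Fzd8. Fzd4 (0.654 ± 0.502), Fzd10 (0.191 ± 0.0681) and Fzd5 (0.172 ± 0.0868) formed the lowest set, all in CPM per kilobase (SD, n = 4).

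In cHet libraries each member overlapped the next in the order of levels. Fzd9, at 0.315 to 7.64 CPM per kilobase, bridged the lowest set and the rest. Fzd4, Fzd10 and Fzd5 reached at most 0.860 CPM per kilobase there, and all members but Fzd9 above them had at least 2.195. The order by mean was Fzd1 with 16.3 ± 7.70, Fzd7 with 11.1 ± 2.90, Fzd3 with 6.98 ± 1.25, Fzd2 with 5.01 ± 1.92 and Fzd8 with 4.29 ± 0.844 CPM per kilobase. Fzd6 with 3.68 ± 1.18, Fzd9 with 3.01 ± 3.32, Fzd4 with 0.719 ± 0.193, Fzd10 with 0.503 ± 0.366 and Fzd5 with 0.132 ± 0.0997 CPM per kilobase followed (SD, n = 4). Fzd9 was thus ranked 3 in cKO libraries and 7 in cHet libraries, and Fzd3 was ranked 6 in cKO libraries and 3 in cHet libraries.

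The summed level of the 10 genes was 470 ± 77.9 CPM in cKO libraries and 284 ± 37.1 CPM in cHet libraries (SD, n = 4 each). Shares within this sum do not depend on how libraries are scaled. Per kilobase, Fzd7 made up 28.3%, 23.3%, 30.8% and 34.9% of the Frizzled transcripts in cKO7, cKO9, cKO14 and cKO15, against 22.6%, 19.7%, 22.6% and 20.0% in cHet8, cHet11, cHet12 and cHet14. It was the only member whose share did not overlap between the groups, by 8.10 percentage points between the means, and no test was made. Without division by length its share was also apart, at 20.4% to 35.7% in cKO libraries and 14.0% to 19.4% in cHet libraries, as was that of Fzd2.

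Fzd3 made up 3.46%, 10.8%, 4.61% and 3.71% of the family per kilobase in cKO7, cKO9, cKO14 and cKO15, against 9.77%, 23.5%, 10.8% and 13.7% in cHet8, cHet11, cHet12 and cHet14. Only cKO9 reached into the cHet range. The share of Fzd9 spanned 6.91% to 17.9% in cKO libraries and 0.528% to 14.7% in cHet libraries, and that of Fzd1 spanned 25.8% to 28.6% in cKO libraries and 19.6% to 41.5% in cHet libraries. The ratio of Fzd2 to Fzd3 counts did not overlap, at 0.425 to 0.902 in cKO libraries and 0.0904 to 0.330 in cHet libraries. The ratio of Fzd7 to Fzd2 overlapped, at 3.20 ± 1.05 in cKO libraries and 2.86 ± 0.419 in cHet libraries (SD, n = 4 each).

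**Figure D4:**
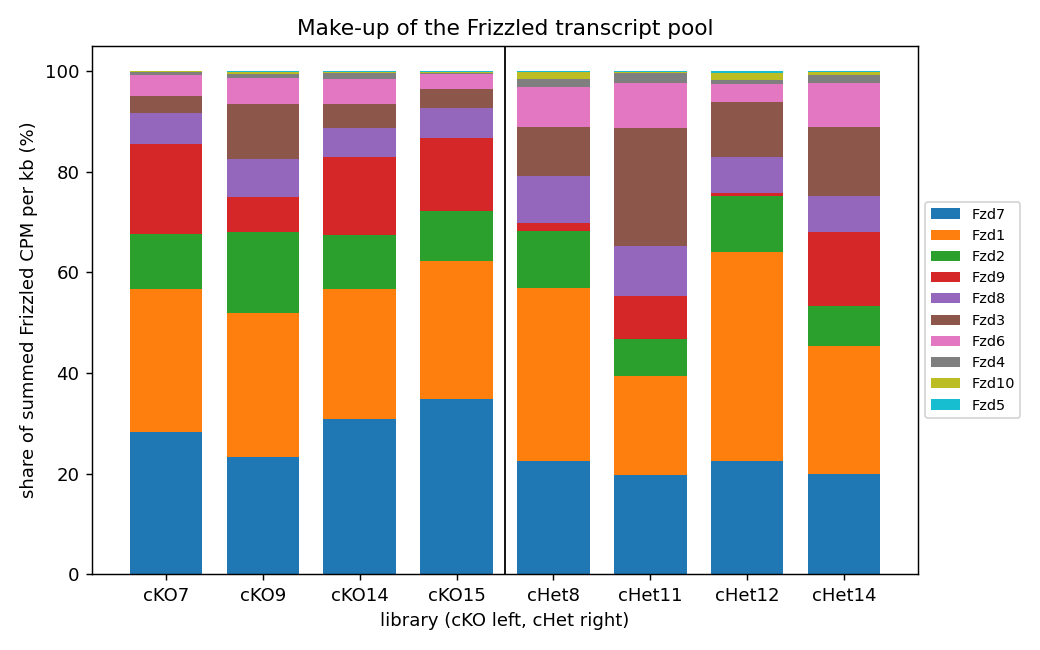
Share of each Frizzled gene in the summed Frizzled level of a library, in percent of CPM per kilobase of exon, as 1 stacked bar per library starting at 0, cKO left of cHet. The Fzd7 section spans 23.3% to 34.9% in cKO libraries and 19.7% to 22.6% in cHet libraries, and that of Fzd3 is widest in cHet11 at 23.5%.

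The related genes Fzd1, Fzd2 and Fzd7 also had the most similar profiles over the 8 libraries. As a measure of likeness, the root mean square distance between log2 CPM values centred on each gene's mean was 0.30 for Fzd1 and Fzd2, 0.36 for Fzd2 and Fzd7, and 0.39 for Fzd1 and Fzd7. Fzd6 and Fzd8, from different groups of the family, were as near at 0.39. The median over the 45 pairs was 1.07, and Fzd9 and Fzd10, which share a sequence group, were farthest apart at 2.84. The other sequence groups were less alike than that of Fzd7. The distance was 0.64 for Fzd3 and Fzd6, 0.78 for Fzd5 and Fzd8, 1.48 for Fzd4 and Fzd10, and 2.37 for Fzd4 and Fzd9. All these profiles share the same libraries and the same difference in marker content. Among 12532 genes of at least 5 CPM, the profiles nearest to Fzd7 were those of Net1, a guanine nucleotide exchange factor, Cercam, and Socs1, a suppressor of cytokine signalling, at 0.11 each. Net1 averaged 368 CPM in cKO libraries and 134.5 CPM in cHet libraries, Cercam 77.3 CPM in cKO libraries and 28.3 CPM in cHet libraries, and Socs1 38.8 CPM in cKO libraries and 13.4 CPM in cHet libraries. Nearest to Fzd1 were Dock10 and Wipi1 at 0.14 each and St3gal1 at 0.15. Dock10 averaged 59.9 CPM in cKO libraries and 32.1 CPM in cHet libraries.

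Genes of Wnt reception were counted in 6 lists of 71 genes, of which 64 were tested. Not all act with Frizzled at the membrane, since the lists include intracellular transducers and genes such as Smo that share only the cysteine-rich domain. edgeR called 3 of the 64 (4.69%), Shisa2, Shisa3 and Prickle2, all higher in cKO libraries, against 1.13% of all tested genes. DESeq2 called 23 of the 63 to which it gave an adjusted p (36.5%), 22 of them higher, against 13% of all genes it tested. Limma voom called 19 of 64 (29.7%), all higher, against 7.22%. These lists were chosen with earlier results of these data known, so a share above that of all genes is no independent evidence. The 3 edgeR calls ended under scaling to the mesenchyme markers, with either marker score in the model, and without cKO14, cKO15, cHet11, cHet12 or cHet14. Shisa2 lost its call also without cKO7 (edgeR adjusted p = 0.102), and Shisa3 without cKO7 (0.103) or cHet8 (0.0620). The largest adjusted p of these genes in any setting was 0.412, with the mesenchyme score in the edgeR model. The differences themselves stayed positive throughout. With the mesenchyme score in the model the log2 difference was 2.35 for Shisa2, 1.52 for Shisa3 and 1.95 for Prickle2, and with the olfactory score 2.50 for Shisa2, 1.86 for Shisa3 and 2.05 for Prickle2. Leaving out 1 library kept Shisa2 between 2.91 and 3.44, Shisa3 between 2.38 and 2.88, and Prickle2 between 1.95 and 2.26.

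Shisa proteins hold immature Frizzled in the endoplasmic reticulum, as first shown in Xenopus, and thereby lower its level at the surface. Shisa2 had 559, 205, 365 and 713 CPM in cKO7, cKO9, cKO14 and cKO15, against 60.5, 31.7, 41.4 and 66.8 CPM in cHet8, cHet11, cHet12 and cHet14. The lowest cKO library, cKO9, was well above the highest cHet library, and the log2 difference was 3.20 (SE 0.42, edgeR adjusted p = 0.0327). Shisa3 had 69.6, 34.9, 54.4 and 97.1 CPM in cKO7, cKO9, cKO14 and cKO15, against 11.3, 4.78, 14.7 and 9.89 CPM in cHet8, cHet11, cHet12 and cHet14. It too did not overlap, with a log2 difference of 2.65 (SE 0.41, edgeR adjusted p = 0.0376).

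Of the 13 genes of surface turnover edgeR called these 2, against 1.13% of all tested genes. There were 7 positive, and the median log2 difference was 0.34. DESeq2 also called Rspo1, Rspo4, Lgr6 and Tmem59, and limma voom also called Rspo1, Rspo4 and Tmem59. That came to 46.2% in DESeq2 and 38.5% in limma voom, against 13% and 7.22% of all genes. Rspo4, an R-spondin that spares Frizzled from degradation, averaged 54.6 ± 20.4 CPM in cKO libraries and 7.46 ± 5.78 CPM in cHet libraries (log2 difference 2.87, edgeR adjusted p = 0.0821). Rspo1, of the same family, had a log2 difference of 2.03 (edgeR adjusted p = 0.149). Rnf43, a ubiquitin ligase that removes Frizzled from the surface, averaged 13.5 ± 3.77 CPM in cKO libraries and 15.99 ± 0.662 CPM in cHet libraries (edgeR adjusted p = 0.655). Its relative Znrf3 averaged 5.11 ± 1.14 CPM in cKO libraries and 6.29 ± 1.41 CPM in cHet libraries (edgeR adjusted p = 0.649), so both overlapped between the groups.

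Of 19 Wnt ligands 13 were tested and edgeR called none (3 at an unadjusted p under 0.05, against 17.1% of all tested genes). There were 4 positive and 9 negative, with a median log2 difference of −0.16. DESeq2 called 3, with Wnt5a and Wnt9a higher and Wnt10a lower in cKO libraries, and limma voom called Wnt9a. That came to 25% in DESeq2 and 7.69% in limma voom, against 13% and 7.22% of all genes. Wnt9a averaged 41.9 ± 17.6 CPM in cKO libraries and 9.27 ± 4.41 CPM in cHet libraries, without overlap (log2 difference 2.18, edgeR adjusted p = 0.0592). Wnt5a, which signals mostly without beta-catenin, averaged 106.5 ± 40.3 CPM in cKO libraries and 53.0 ± 17.1 CPM in cHet libraries, and the groups overlapped (log2 difference 1.01, edgeR adjusted p = 0.179). Wnt10a, whose loss causes missing teeth in humans, averaged 5.60 ± 3.40 CPM in cKO libraries and 14.2 ± 6.28 CPM in cHet libraries (log2 difference −1.34, edgeR adjusted p = 0.219). Wnt6 had a log2 difference of −0.62 (edgeR adjusted p = 0.435).

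Of the 10 co-receptor genes edgeR called none (6 at an unadjusted p under 0.05, against 17.1% of all tested genes). There were 8 positive, and the median log2 difference was 0.89. DESeq2 called 5 higher, Lrp5, Ror2, Ptk7, Adgra2 and Reck, and limma voom called 4, the same without Ror2. That came to 50% in DESeq2 and 40% in limma voom, against 13% and 7.22% of all genes. Lrp5, the canonical co-receptor, had 8.70, 48.9, 13.3 and 20.1 CPM in cKO7, cKO9, cKO14 and cKO15, against 2.22, 1.48, 6.05 and 1.84 CPM in cHet8, cHet11, cHet12 and cHet14. It did not overlap, but cKO9 stood far above the other libraries, and the log2 difference was 2.97 (SE 0.68, edgeR adjusted p = 0.0804). Ptk7, a planar polarity co-receptor, averaged 158 ± 24.7 CPM in cKO libraries and 61.1 ± 32.6 CPM in cHet libraries (edgeR adjusted p = 0.111). Adgra2 and Reck, which together pass Wnt7 signals to Frizzled, had log2 differences of 1.64 (edgeR adjusted p = 0.133) and 1.33 (edgeR adjusted p = 0.165).

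Of the 10 intracellular transducers edgeR called none (1 at an unadjusted p under 0.05, against 17.1% of all tested genes), with a median log2 difference of 0.11. Both DESeq2 and limma voom called Dvl2 alone (10%), against 13% and 7.22% of all genes. Dvl2, one of the Dishevelled proteins that bind Frizzled, averaged 58.4 ± 2.40 CPM in cKO libraries and 43.3 ± 3.93 CPM in cHet libraries without overlap, a small difference with little spread (log2 0.43, SE 0.10, edgeR adjusted p = 0.0897). Axin1, the scaffold recruited to the active receptor, had a log2 difference of 0.19 (edgeR adjusted p = 0.396). Csnk1g2 and Csnk1g3, kinases that phosphorylate Lrp6, stood at 0.15 (edgeR adjusted p = 0.425) and 0.23 (edgeR adjusted p = 0.459) on the same scale.

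Of 10 other genes with a Frizzled-type cysteine-rich domain 9 were tested and edgeR called none. At an unadjusted p under 0.05 edgeR listed 5, against 17.1% of all tested genes. There were 6 positive, and the median log2 difference was 1.08. DESeq2 and limma voom each called Smo, Sfrp2, Sfrp4 and Frzb higher (44.4%), against 13% and 7.22% of all genes. Smo, the Hedgehog transducer, averaged 117 ± 37.8 CPM in cKO libraries and 35.3 ± 13.3 CPM in cHet libraries without overlap (log2 difference 1.73, edgeR adjusted p = 0.0592). The secreted Wnt binders Sfrp2, Frzb and Sfrp4 had log2 differences of 2.02, 1.67 and 1.77, with edgeR adjusted p-values of 0.0812, 0.0864 and 0.129, and Sfrp2 stands in the papilla marker list too. Of 9 planar polarity partners edgeR called 1, against 1.13% of all tested genes. DESeq2 and limma voom each called 4 of these polarity genes (44.4%), Prickle1, Prickle2, Daam2 and Vangl1, against 13% and 7.22% of all genes. Prickle2, a cytoplasmic core component of that pathway, had 13.1, 27.3, 24.1 and 29.3 CPM in cKO7, cKO9, cKO14 and cKO15, against 6.65, 5.82, 5.01 and 4.66 CPM in cHet8, cHet11, cHet12 and cHet14. The groups did not overlap (log2 difference 2.08, SE 0.28, edgeR adjusted p = 0.0328). Its relative Prickle1 (1.17, edgeR adjusted p = 0.0745), Daam2 (2.06, edgeR adjusted p = 0.098) and Vangl1 (1.35, edgeR adjusted p = 0.112) had positive log2 differences that did not pass in edgeR. Of the 15 mesenchyme markers edgeR called 2 higher, against 1.13% of all tested genes called in either direction. With 13 positive and a median log2 difference of 1.38, these markers moved in the same direction as these lists, and their part was not tested.

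**Figure D5:**
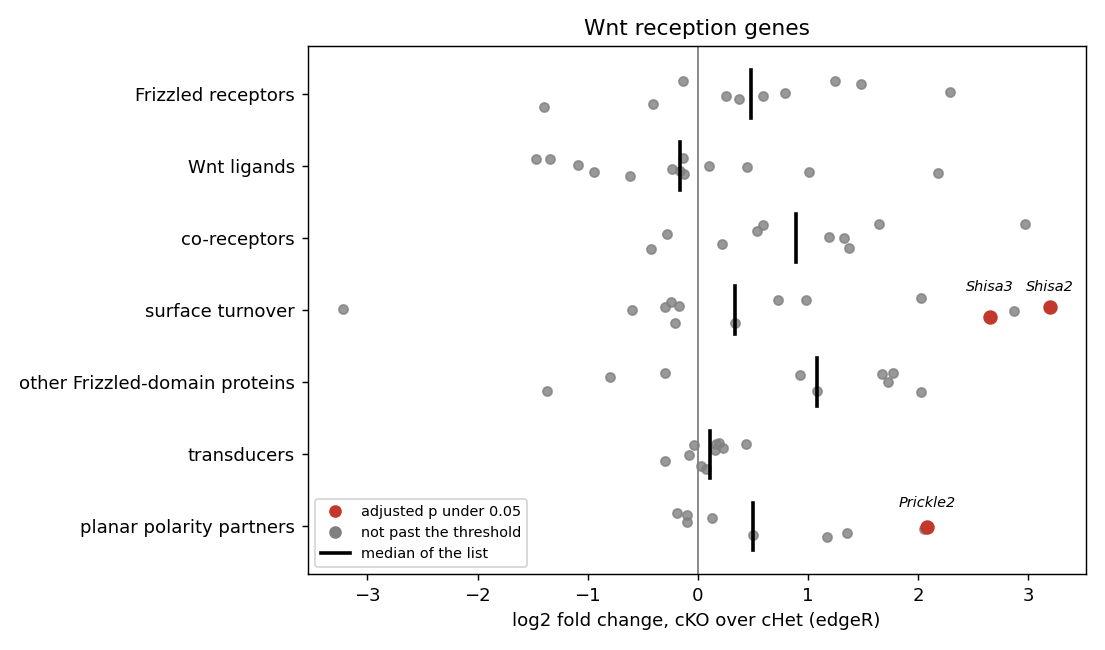
Log2 differences, cKO over cHet, of the tested genes in the Frizzled family and 6 lists of Wnt reception genes, with 1 point per gene and a bar at each median. Medians run from −0.16 for the ligands to 1.08 for the other Frizzled-domain genes, and the 3 genes called by edgeR are Shisa2, Shisa3 and Prickle2.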

How the data were processed

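The authors deposited whole-number read counts per gene with Ensembl identifiers, not normalised, for 8 libraries. Per the labels' protocols, a SMART-Seq v4 low-input kit was used, which amplifies full-length transcripts without marking strand or tagging molecules. Trim Galore, STAR and the builds GRCm39 and mm39 are listed in the submitters' processing notes. Versions, annotation and counting tool were not given in the sources used here. Column names carry the group but none of the labels' replicate numbers, so each column was assigned to its group only.

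Of 56748 identifiers, 52073 matched a symbol, and each Frizzled symbol had 1 identifier. The comparison of cKO with cHet used edgeR 4.0.16 under R 4.3.3 (TMM factors, default filter by group, quasi-likelihood F test, genotype as sole term), with Benjamini-Hochberg adjustment over 21508 genes and a two-sided threshold of 0.05. The common biological coefficient of variation was 0.553, and depth was similar in all libraries. The standard error of a log2 difference is its size over the square root of F, an approximation. DESeq2 1.42.0, limma 3.58.1 voom, other scalings and filters, marker scores as covariates and omission of each library were alternatives. The fit was tested on simulated data for 20561 genes in 4 against 4 libraries, which recovered 63% of the genes changed 4-fold and 87% of those changed 16-fold, with 3 false among 153 calls; variation shared between genes was not simulated. Levels per kilobase use exon lengths of GENCODE M21 (GRCm38), another build than the files', and no coordinates were moved between builds. Promoters are from RefSeq, GRCm38.p6, for 6 of 10 members. Profile distances use log2 CPM with a prior count of 2.

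The members and gene lists were chosen with earlier results of these data known. Named were all Frizzled genes, Ctnnb1, Cxcl12, up to 4 members of each list with the smallest p, and the 3 nearest profiles to the member with the smallest p and to the 2 with the largest mean CPM, which came to Fzd7 and Fzd1. Omp, Rnf43, Znrf3, Ndp, Tspan12, Rspo3, Ror2, Lgr6, Tmem59, Dvl1, Dvl3 and Axin2 do not follow this rule and were picked with their values in view.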

Additional observations from a re-analysis of the deposited data

Results flagged for a closer look

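Fzd2 in cKO15, at 46.7 CPM, lay apart from the other 3 cKO libraries, which stood between 42.1 and 42.7 CPM. Its gap to the nearest of them was 0.864 of the group's range, above the critical value of Dixon's test for 4 samples. The difference is small beside the gap to the cHet libraries, whose highest value was 24.2 CPM. Chance alone marks about 1 group in 20, and both groups of all 10 members were examined.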

How the results depend on the processing

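The number of Frizzled genes called was 0 of 10 in edgeR (4 at an unadjusted p under 0.05), and 3 in DESeq2 and 3 in limma voom. At a threshold of 0.10 edgeR called 2, Fzd2 and Fzd7, and leaving out 1 library at a time gave 0 to 1, the 1 being Fzd7 without cKO9. Over all tested genes the 244 calls became 2557 in DESeq2, 1552 in limma voom and 766 at a threshold of 0.10. They became 9 under scaling to the mesenchyme markers, 8 with the mesenchyme score as covariate and 0 with the olfactory score as covariate, where 1924 genes had an unadjusted p under 0.05. Without 1 library they ranged from 0 (without cKO14, cHet12 or cHet14) to 960 (without cKO9), with 4 without cHet11, 8 without cKO7 or cKO15 and 156 without cHet8. The split of higher against lower calls also moved, from 232 and 12 in edgeR to 1704 and 853 in DESeq2, 1281 and 271 in limma voom, and 5 and 4 under scaling to the mesenchyme markers. The 3 calls in the lists of Wnt reception genes became 23 in DESeq2, 19 in limma voom and 12 at a threshold of 0.10, and 0 under scaling to the mesenchyme markers or with either score as covariate, and ranged from 0 to 8 without 1 library. The cause of these shifts was not tested.

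The log2 difference of Ctnnb1 turned to −1.14 under scaling to the mesenchyme markers and to −0.10 with the mesenchyme score as covariate. Under the mesenchyme scaling the signs of Fzd1 (−0.23), Fzd5 (−0.65), Fzd6 (−0.95) and Fzd8 (−0.59) turned, as that scaling moved the median of all genes to −1.24. Relative to that median they stood at 1.02, 0.60, 0.29 and 0.66. As a scaling shifts all genes nearly alike, such relative values could hardly change sign. With the mesenchyme score as covariate those of Fzd1 (−0.20), Fzd3 (0.0887), Fzd4 (0.0729) and Fzd5 (−0.98) turned, and with the olfactory score as covariate those of Fzd4 (0.59) and Fzd5 (−0.29). Leaving out 1 library moved Fzd4 between −0.76 and 0.22 and Fzd9 between 1.91 and 3.31. Fzd2, Fzd7 and Fzd9 kept a positive sign in all 20 alternatives, and Fzd10 a negative sign in all 19 that tested it. The threshold of 0.10 reuses the main fit, so no sign could change there. Robust dispersions and identifiers summed per symbol left the log2 differences almost unchanged, so these alternatives say little about the signs. The share of Fzd3 differed by −8.80 percentage points per kilobase and by −17.3 without division by length. No paired analysis was possible because the columns carry none of the labels' replicate numbers. Fzd10 was not tested under the filter of 1 CPM, and the low counts of Fzd5 and Fzd10 limit what depth can show for them.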

Other observations

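The partners of Fzd4 in Norrin signalling were measured although Fzd4 itself was scarce. Ndp, the gene of the ligand Norrin, had 52.4, 43.4, 38.1 and 47.9 CPM in cKO7, cKO9, cKO14 and cKO15, against 58.4, 54.7, 44.8 and 62.7 CPM in cHet8, cHet11, cHet12 and cHet14. The ranges overlapped, with a log2 difference of −0.28 (edgeR adjusted p = 0.378). Tspan12, the membrane protein that helps Fzd4 receive Norrin, had 22.6, 26.9, 25.5 and 15.9 CPM in cKO7, cKO9, cKO14 and cKO15, against 27.9, 29.5, 29.1 and 35.9 CPM in cHet8, cHet11, cHet12 and cHet14. Every cKO library was below every cHet library, as for 3.68% of all tested genes, with a log2 difference of −0.43 that did not pass (edgeR adjusted p = 0.295).

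Of the Dishevelled genes, Dvl1 averaged 75.1 CPM in cKO libraries and 73.3 CPM in cHet libraries, and Dvl3 107 CPM in cKO libraries and 95.4 CPM in cHet libraries. Axin2, a feedback target of canonical Wnt signalling, was low throughout, at 2.52 ± 1.80 CPM in cKO libraries and 2.67 ± 1.36 CPM in cHet libraries (SD, n = 4 each, edgeR adjusted p = 0.966). Rspo3 had the most negative log2 difference of the surface turnover genes, at 0.278 CPM in cKO libraries and 2.62 CPM in cHet libraries on average, with overlapping ranges.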
